A study of Mus musculus with 4 samples.

Results

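*Hox* genes of the HoxA, HoxC and HoxD clusters were examined in the perivascular adipose tissue (PVAT) around the mouse femoral artery. The set was meant as a check of tissue position at the level of the hindlimb, although some of its genes pattern the thorax. The 10 genes were *Hoxa5*, *Hoxa7*, *Hoxa9*, *Hoxa10*, *Hoxc6*, *Hoxc8*, *Hoxc9*, *Hoxc10*, *Hoxd8* and *Hoxd9*. They were taken by symbol, as genes whose expression records the body position of a fat depot, and the rule uses no measured value. All 10 had values in each library, among 12661 genes in all.

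The tissue was the outer layer around the femoral artery, consisting mainly of PVAT, from wild type C57BL/6 mice that were female, ovariectomized and 11 weeks old. In the injury group (2 libraries) a wire of 0.38 mm had been inserted into the artery, and the sham group (2 libraries) had the operation without it. RNA was taken 48 h later in both groups, and ovariectomy was common to all 4 libraries. The labels do not say whether the 2 libraries of a group came from separate animals, so p-values measure only the spread between these libraries, which may be technical.

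*Hox* genes encode homeodomain transcription factors and lie in clusters, in which gene order follows the order of expression along the head to tail axis of the embryo. Adipocytes and their precursors in the adult keep a *Hox* pattern that depends on the depot they come from. PBX, MEIS and PKNOX proteins of the TALE class bind DNA together with HOX proteins. Polycomb complexes keep silent the part of a cluster that a cell does not use. The comparison asked whether these genes, as markers of position, differed between the tissue around injured and sham-operated arteries.

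The deposited values are signed and behave as logarithms of an unstated base. Each library's median is close to 0, but the zero point of a gene is not stated, and it is not the gene's mean over these 4 libraries, since *Hoxc8*, for example, is above 0 in all of them. A difference of 1 deposited unit therefore has no fold change attached, and values cannot be compared between genes. For the same reason the level of a *Hox* gene in this tissue, and with it the position of the tissue, cannot be read from these data. The read depth of the libraries is unknown. In bulk tissue, fewer cells of a type and less RNA per cell cannot be told apart.

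None of the 10 *Hox* genes differed between injury and sham at an adjusted p-value under 0.05 (0 of 10, limma with Benjamini-Hochberg adjustment over all genes). Over the whole table, 7.43% of genes passed (941 of 12661), of which 476 were higher (3.76% of all genes) and 465 lower (3.67%) after injury. That number rested on which libraries entered, with 0 genes passing without sham replicate 1, 1 without sham replicate 2, 284 without injury replicate 1 and 1790 without injury replicate 2, and 0 of the 10 *Hox* genes in each case. An unadjusted p-value under 0.05 was found for 2 of the 10 genes (20.0%), against 29.5% of all genes. These were *Hoxa5*, which was higher after injury, and *Hoxd9*, which was lower, and both also had an adjusted p-value under 0.1, as had 18.3% of all genes. In all, 3 of the 10 differences lay above 0 and 7 below. Their median was -0.11 deposited units, beside 0.0085 over all genes, and the median size without sign was 0.18, beside 0.25 over all genes.

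**Figure D1:**
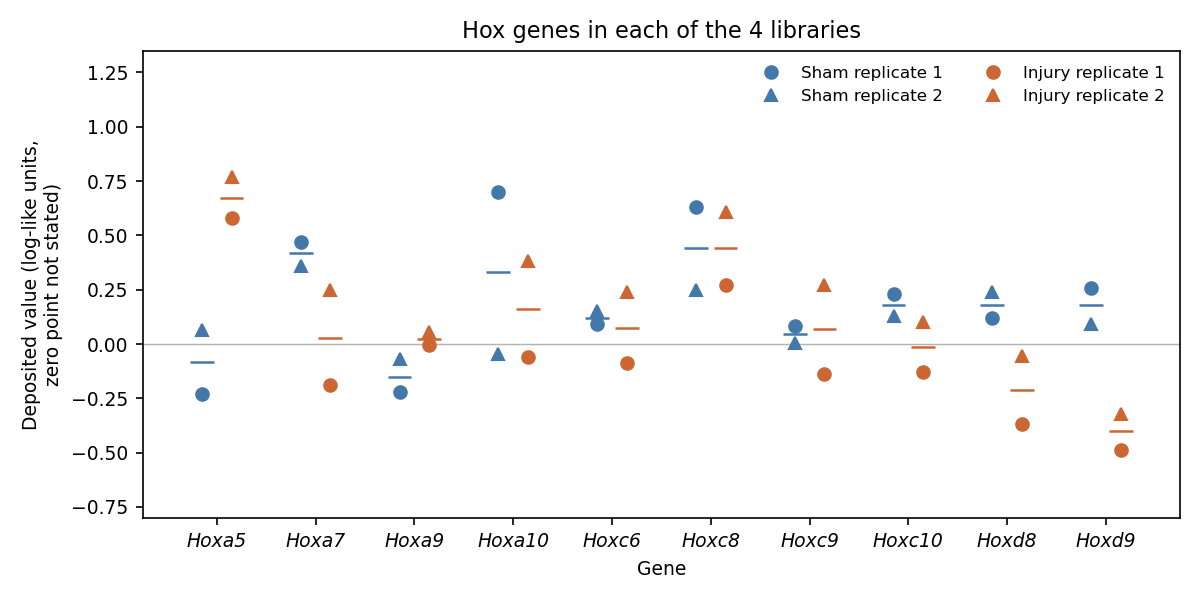
Deposited values (vertical axis, log-like units with an unstated zero point) of the 10 Hox genes (horizontal axis) in 2 sham libraries (blue) and 2 injury libraries (orange), with replicate 1 as circles, replicate 2 as triangles and a short line at each group mean. The injury libraries lie above both sham libraries for Hoxa5 and Hoxa9 and below both for Hoxa7, Hoxc10, Hoxd8 and Hoxd9, and injury replicate 2 lies above injury replicate 1 for all 10 genes.

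The promoters of *Hoxa5* and *Hoxd9* are shown because these were the members with an unadjusted p-value under 0.05, on opposite sides of 0. They are RefSeq promoter sequences of GRCm38.p6, each found at a single place on its mm9 chromosome, and 6 of the 10 genes had such a sequence. Both are written 5′ to 3′ on the gene's own strand and end at the base before the annotated gene. The *Hoxa5* promoter is at chr6:52154587-52154836 (mm9, minus strand, 250 bases), and the *Hoxd9* promoter at chr2:74535570-74535736 (mm9, plus strand, 167 bases). Capitals mark each CG, the dinucleotide that DNA methylation acts on in mammals.
Hoxa5 promoter: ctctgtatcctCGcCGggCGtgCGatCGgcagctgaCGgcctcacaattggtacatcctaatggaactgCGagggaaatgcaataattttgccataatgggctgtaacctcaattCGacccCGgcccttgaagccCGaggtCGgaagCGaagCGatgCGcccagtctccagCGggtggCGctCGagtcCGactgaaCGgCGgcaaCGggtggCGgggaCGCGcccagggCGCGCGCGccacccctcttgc
Hoxd9 promoter: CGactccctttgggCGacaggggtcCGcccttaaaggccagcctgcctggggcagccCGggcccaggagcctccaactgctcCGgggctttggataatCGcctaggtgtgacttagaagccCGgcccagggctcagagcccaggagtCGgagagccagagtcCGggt

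The *Hoxa5* window held 28 CG dinucleotides, more than 92.4% of the 32851 mouse promoter windows of 250 bases, whose median was 6. The *Hoxd9* window of 250 bases, of which 9 CG are in the bases shown, held 13, more than 68.5% of those windows. The letters of a PBX-HOX composite motif (TGATTNAT), of the core bound by TALE proteins (TGACAG) and of a homeodomain core (TAATTA) were searched on both strands. None of these was found in the windows of *Hoxa5*, *Hoxa7*, *Hoxa9*, *Hoxa10*, *Hoxd8* or *Hoxd9*. Of all promoter windows, 2.82%, 15.9% and 4.84% held these motifs, respectively. The absence says only that these letters are not in these windows.

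In the HoxA cluster on chromosome 6, *Hoxa5* acts in the development of the lung and of the cervical and upper thoracic vertebrae (mm9, chr6:52151753-52154586, minus strand). Its values were -0.23 and 0.066 in the sham libraries and 0.58 and 0.77 in the injury libraries. Both injury libraries were above both sham libraries. The difference was 0.76 ± 0.17 deposited units (SE, 95% interval 0.33 to 1.18, adjusted p = 0.0563 by limma), and the fits to 3 of the 4 libraries gave 0.61 to 0.91. The adjusted p-value lay between 0.0562 and 0.0677 under the alternatives that kept all 4 libraries. By size the difference exceeded those of 86.9% of all genes. *Hoxa5* lies within the longer locus of *Hoxa3* on the same strand, without sharing exon bases with it.

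*Hoxa7*, a gene of the middle of the cluster that patterns thoracic vertebrae (mm9, chr6:52164490-52171853, minus strand), had values of 0.47 and 0.36 in sham and of -0.19 and 0.25 in injury. The groups did not overlap, and the injury libraries were lower and further apart than the sham libraries. The difference was -0.39 ± 0.19 (SE, 95% interval -0.86 to 0.086, adjusted p = 0.24 by limma). Of its exon bases, 20.4% overlap *2700086A05Rik* on the opposite strand.

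*Hoxa9*, known in blood progenitors and, with *Meis1*, in leukaemia (mm9, chr6:52173099-52181088, minus strand), had values of -0.22 and -0.068 in sham and of -0.0055 and 0.054 in injury. Both injury libraries were above the sham libraries, and all 4 values were close together. The difference was 0.17 ± 0.14 (SE, 95% interval -0.18 to 0.52, adjusted p = 0.467 by limma). *Hoxa9* shares 5.67% of its exon bases with other genes on its strand, among them *Mir196b*.

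*Hoxa10*, a gene of the group that patterns the lumbar and sacral region and the thigh (mm9, chr6:52181196-52190853, minus strand), had values of 0.70 and -0.046 in sham and of -0.06 and 0.38 in injury. The groups overlapped, and the sham libraries were further apart than for any other of the 10 genes. The difference was -0.17 ± 0.29 (SE, 95% interval -0.90 to 0.56), with an adjusted p-value of 0.74 by limma. It was 0.20 without sham replicate 1, 0.05 without injury replicate 1 and -0.54 at its lowest when a library was left out.

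The 4 genes of the HoxC cluster, among them *Hox* genes known from white fat, had differences between -0.19 and 0.025. They follow each other on the plus strand of chromosome 15 (mm9), *Hoxc10* at chr15:102797227-102802324, *Hoxc9* at chr15:102806870-102815530, *Hoxc8* at chr15:102821053-102824698 and *Hoxc6* at chr15:102828688-102842312. *Hoxc6*, *Hoxc8* and *Hoxc9* lie within *Gm20398* on the same strand without shared exon bases, whereas *Hoxc10* shares 8.7% of its exon bases with it.

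*Hoxc6*, which takes part in patterning the thorax, had values of 0.091 and 0.15 in sham and of -0.087 and 0.24 in injury. The injury libraries lay on either side of the sham libraries. The difference was -0.048 ± 0.16 (SE, 95% interval -0.46 to 0.36, adjusted p = 0.872 by limma).

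*Hoxc8*, which restrains the brown adipocyte programme in white fat precursors, had values of 0.63 and 0.25 in sham and of 0.27 and 0.61 in injury. The ranges of the groups nearly coincided. The difference was -0.00063 ± 0.20 (SE, 95% interval -0.50 to 0.50, adjusted p = 0.999 by limma), smaller in size than those of all but 0.158% of genes. Its sign turned when the columns were scaled to one spread (0.044) or quantile normalized (0.069).

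*Hoxc9*, used as a marker of white and beige adipocytes of the inguinal depot, had values of 0.082 and 0.006 in sham and of -0.14 and 0.27 in injury. Here too the injury libraries lay on either side of the sham libraries. The difference was 0.025 ± 0.18 (SE, 95% interval -0.43 to 0.48, adjusted p = 0.94 by limma).

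*Hoxc10*, a repressor of *Prdm16* and of browning in subcutaneous fat, had values of 0.23 and 0.13 in sham and of -0.13 and 0.10 in injury. Both injury libraries were lower than both sham libraries, injury replicate 2 by a small margin. The difference was -0.19 ± 0.15 (SE, 95% interval -0.57 to 0.19, adjusted p = 0.451 by limma).

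In the HoxD cluster on chromosome 2, both genes were lower in each injury library than in each sham library, although neither passed the threshold. *Hoxd8*, expressed in the trunk (mm9, chr2:74542672-74545990, plus strand), had values of 0.12 and 0.24 in sham and of -0.37 and -0.055 in injury. The difference was -0.39 ± 0.17 (SE, 95% interval -0.81 to 0.022, adjusted p = 0.186 by limma).

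*Hoxd9*, which acts with *Hoxa9* in the proximal limb (mm9, chr2:74535737-74538265, plus strand), had values of 0.26 and 0.093 in sham and of -0.49 and -0.32 in injury. Both sham libraries were above 0 and both injury libraries below it. The difference was -0.58 ± 0.15 (SE, 95% interval -0.95 to -0.21, adjusted p = 0.0728 by limma), and the adjusted p-value lay between 0.0638 and 0.117 under the alternatives with all 4 libraries. Leaving out each library in turn gave -0.67 to -0.50. *Hoxd9* shares no exon bases with another annotated gene.

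*Hoxa5* and *Hoxd9*, picked after their values were seen as members on opposite sides of 0, were also set against each other within each library as a description. *Hoxa5* minus *Hoxd9* was -0.50 and -0.027 in the sham libraries and 1.06 and 1.09 in the injury libraries. The injury libraries were close together and the sham libraries further apart. That the groups do not overlap follows from how the pair was picked.

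Among the 10 genes the order of the differences ran from *Hoxd9* over *Hoxd8*, *Hoxa7*, *Hoxc10*, *Hoxa10*, *Hoxc6*, *Hoxc8*, *Hoxc9* and *Hoxa9* to *Hoxa5*. The 95% intervals of neighbours in this order overlapped, and an interval reached 0.35 to 0.73 units to either side of the difference. The interval lay within 1 unit of 0 for 9 of the 10 genes (90.0%), all but *Hoxa5*, and for 76.9% of all genes. The groups did not overlap for 6 of the 10 genes, 2 higher and 4 lower after injury, and they did not overlap for 61.9% of all genes (31.6% higher, 30.3% lower).

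**Figure D2:**
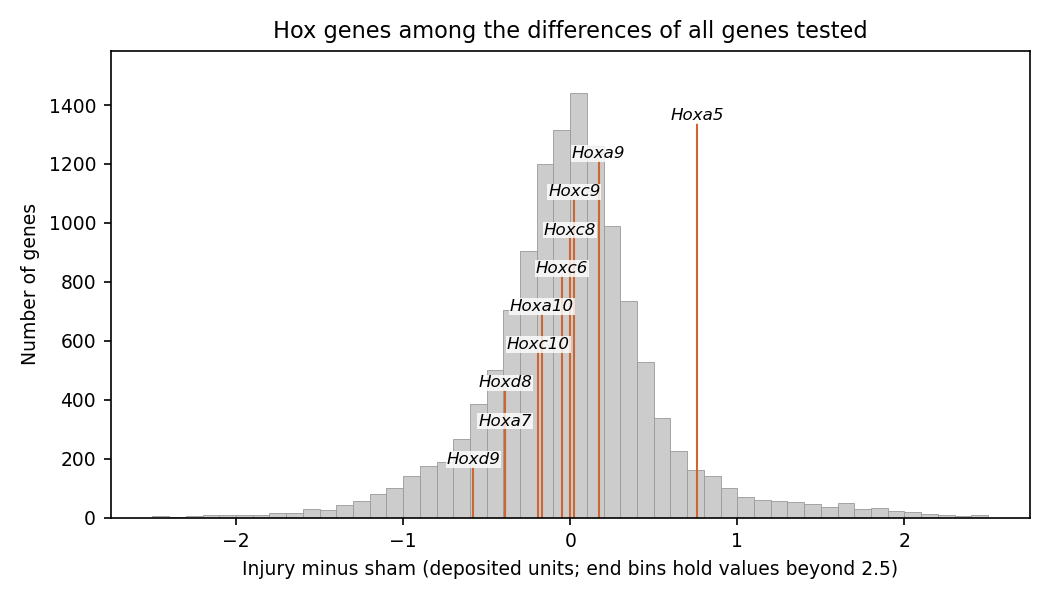
Histogram of the difference injury minus sham (horizontal axis, deposited units) over the 12661 genes (vertical axis, number of genes), with a labelled line at the difference of each of the 10 Hox genes. The height of a line only separates the labels. The 10 differences, from -0.58 for Hoxd9 to 0.76 for Hoxa5, lie between -0.86 and 0.90, the 5% and 95% quantiles of all genes.

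The injury libraries differed from each other in these genes. Injury replicate 2 was above injury replicate 1 in 10 of 10 genes, by a median of 0.32 units, whereas this was so for 51.1% of all genes. Sham replicate 2 was above sham replicate 1 in 4 of 10 genes and in 48.4% of all genes. The median over the 10 genes was 0.18 and 0.11 in the sham libraries, -0.11 in injury replicate 1 and 0.24 in injury replicate 2. Without injury replicate 1 the median difference between the groups was 0.082 in place of -0.11, so its sign depended on that library.

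The other 15 *Hox* genes analysed, of 29, comprised 13 with a difference below 0 and 2 with a difference above 0, and their median was -0.28. *Hoxb9*, a thoracic gene at the end of the HoxB genes analysed, was the 1 gene among them to pass the threshold, and it fell (mm9, chr11:96132771-96137909, plus strand). Its values were 0.94 and 0.40 in sham and -0.57 and -0.33 in injury. The groups lay on opposite sides of 0. The difference was -1.12 ± 0.22 (SE, 95% interval -1.67 to -0.57, adjusted p = 0.0465 by limma). Among the fits with a library left out, the call was lost without sham replicate 1 (adjusted p = 0.215 by limma), without sham replicate 2 (0.113) and without injury replicate 1 (0.111), and it was kept without injury replicate 2 (0.04).

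By cluster, all 5 HoxD genes analysed had differences below 0. *Hoxd3*, *Hoxd4*, *Hoxd8*, *Hoxd9* and *Hoxd10* had differences between -0.62 and -0.39 with a median of -0.55. By limma, 3 of the 5 had an unadjusted p-value under 0.05 (60.0%, against 29.5% of all genes), and none an adjusted p-value under 0.05. *Hoxd3* had a difference of -0.62 ± 0.20 (SE) and *Hoxd4* of -0.55 ± 0.17. These values may share reads, since 67.4% of the exon bases of *Hoxd4* are shared with *Hoxd3* and the treatment of such reads in the counting is not given in the sources used here. *Hoxd10* had a difference of -0.46 ± 0.24.

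The 8 HoxB genes analysed had a median of -0.32, and 7 of them were lower. *Hoxb2* was at -0.45, *Hoxb3* at -0.52, *Hoxb5* at -0.28, *Hoxb6* at -0.27, *Hoxb7* at -0.35 and *Hoxb8* at -0.13, whereas *Hoxb4* was at 0.082, with none of these past the threshold. *Hoxb7* and *Hoxb8* share 1069 exon bases. The 5 HoxC genes had differences between -0.19 and 0.025, with *Hoxc4* at -0.11.

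The HoxA cluster was mixed, with 3 genes higher, 4 lower and a median of -0.0064. The differences furthest above 0 among the 25 *Hox* genes belonged to the neighbours *Hoxa5* and *Hoxa4*. *Hoxa4* had values of -0.12 and -0.042 in sham and of 0.52 and 0.092 in injury, without overlap, and a difference of 0.39 ± 0.19 (SE, adjusted p = 0.231 by limma). *Hoxa3* was at -0.10 and *Hoxa2* at -0.0064, with overlapping groups. Differences between clusters were not tested. Over all 25 *Hox* genes, 20 differences were below 0, as were 49.1% of those of all genes, and the median was -0.19.

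**Figure D3:**
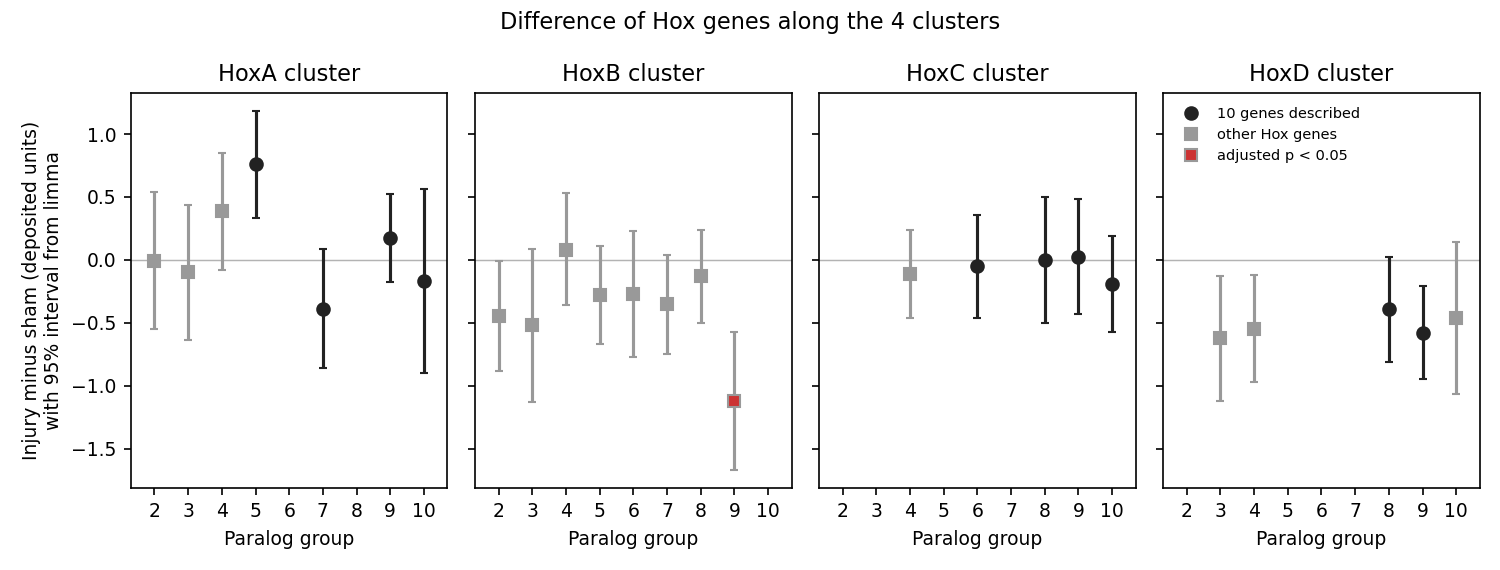
Difference injury minus sham with its 95% interval from limma (vertical axis, deposited units) for the 25 Hox genes analysed, by paralog group (horizontal axis) in the HoxA, HoxB, HoxC and HoxD clusters. Black circles are the 10 genes described, grey squares the other Hox genes, and a red centre marks an adjusted p-value under 0.05. Hoxb9 alone carries that mark and all 5 HoxD genes lie below 0, whereas the 5 HoxC genes lie between -0.19 and 0.025.

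The TALE cofactors named here did not pass the threshold by limma, and *Pknox2* and *Meis2*, both lower after injury, had an unadjusted p-value under 0.05. *Pknox2* had values of -0.016 and 0.011 in sham and of -1.07 and -0.49 in injury, a difference of -0.78 ± 0.22 (SE, adjusted p = 0.088 by limma). Its injury libraries were below both sham libraries and far apart. Without injury replicate 2 *Pknox2* passed, with an adjusted p-value of 0.0182 by limma.

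Cofactors of the MEIS family lay nearer to 0 than *Pknox2*. *Meis2* had a difference of -0.48 ± 0.19 and *Meis3* of -0.22 ± 0.16, whereas *Meis1* had one of 0.15 ± 0.14 (SE). *Pbx2* was at 0.34 ± 0.14, *Pbx3* at -0.099 ± 0.14 and *Pknox1* at -0.078 ± 0.16.

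Further regulators of position and of *Hox* expression were examined as lists. Of 20 limb and depot position factors, 10 were analysed and 0 passed by limma. An unadjusted p-value under 0.05 was found for 4 of the 10 (40.0%), against 29.5% of all genes. Of the Polycomb and Trithorax regulators, which silence *Hox* genes or keep them active, all 30 were analysed and 0 passed. Among these 30, 4 had an unadjusted p-value under 0.05 by limma (13.3%), and the median difference was 0.022.

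Cell type markers moved with injury in the same libraries. Mesenchymal progenitors are cells that keep the *Hox* pattern of their depot. Of 12 markers of these cells 5 fell, with *Lum*, *Dcn*, *Cd34* and *Col3a1* foremost, and the median difference was -0.65. Of the 12 differences 11 lay below 0, with *Ly6a* (-0.096) and *Pdgfrb* (-0.099) near it. *Pdgfra* was the 1 marker with a difference above 0 (0.41 ± 0.21, SE), and its injury libraries lay above both sham libraries. The summed level of the 12 markers was 2.62 and -0.075 in sham and -6.95 and -3.24 in injury. Of 12 adipocyte markers, 1 fell, *Plin1*, which coats the lipid droplet (-0.74 ± 0.14, SE, adjusted p = 0.0444 by limma). The list went both ways, with 5 differences above 0 and 7 below. They ran from -0.94 ± 0.41 for *Retn* to 0.65 ± 0.19 for *Lpl* (SE), and neither of these 2 genes passed. The adipocyte sum was 2.67 and 3.88 in sham and -2.05 and 3.11 in injury, so that injury replicate 2 lay within the sham range.

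Of 12 myeloid markers, 5 rose. For all 12 the injury libraries lay above the sham libraries without overlap, as they did for 31.6% of all genes. The median difference of these 12 markers was 1.58. Their sum was -15.73 and -13.00 in sham, 10.41 in injury replicate 1 and -0.45 in injury replicate 2. Of 7 smooth muscle markers 5 fell, with a sum of 11.76 and 7.10 in sham and of -9.43 and -1.65 in injury. Of 8 endothelial markers 3 fell, with a sum of 5.36 and 5.34 in sham and of -1.78 and -1.50 in injury. Without sham replicate 1, and likewise without sham replicate 2, 0 genes of any of these lists passed. Without injury replicate 1, the numbers passing were 0 progenitor, 0 adipocyte, 3 myeloid, 2 smooth muscle and 1 endothelial markers. Without injury replicate 2 they were 5 progenitor, 4 adipocyte, 12 myeloid, 7 smooth muscle and 2 endothelial markers. Of 7 skeletal muscle markers 0 passed by limma, with 57.1% at an unadjusted p-value under 0.05, against 29.5% of all genes. Among these 7, 6 were lower after injury and 1 higher, with a median difference of -0.74. Their sum was 4.76 and -1.34 in sham and -1.15 and -1.84 in injury. Of the epithelial markers only *Cdh1* was analysed and did not pass.

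The injury libraries also differed from each other in several of these lists. Injury replicate 2 was above injury replicate 1 in 11 of 12 adipocyte markers (median gap 0.43), in 10 of 12 progenitor markers (0.27) and in 7 of 7 smooth muscle markers (1.14), and in 0 of 12 myeloid markers (-0.96). The gap was small for the endothelial markers (6 of 8, median 0.047), and for the skeletal muscle markers it went the other way (3 of 7, median -0.19). The part of these cell types in the *Hox* values was not tested. Since the zero point of the values is not stated, none of the markers can be called absent. All 12 adipocyte markers had values, as had all 12 myeloid markers, and their presence is therefore no check of the labelled tissue.

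**Figure D4:**
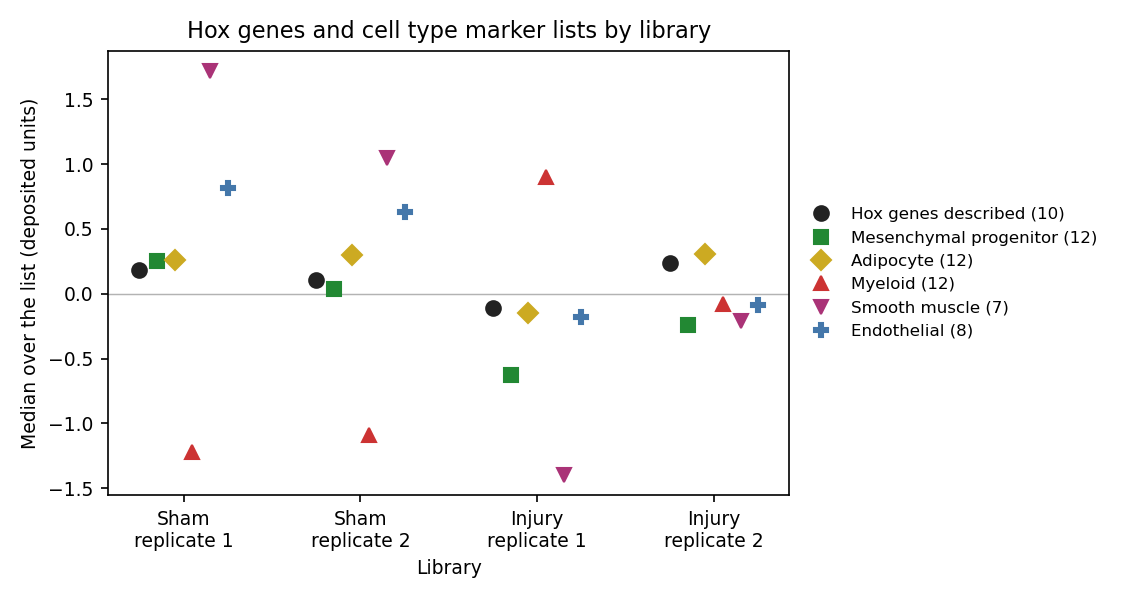
Median over each list of genes (vertical axis, deposited units) in the 4 libraries (horizontal axis), for the 10 Hox genes and 5 lists of cell type markers, set side by side within a library, with the number of genes of a list in brackets. The Hox median is 0.24 in injury replicate 2 and -0.11 in injury replicate 1, the adipocyte and progenitor medians are likewise higher in injury replicate 2, and the myeloid median is higher in injury replicate 1.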

How the data were processed

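RNA-seq was done on 2 sham and 2 injury libraries, grouped by their labels. The input per library was 480 ng of RNA, and the kit selects mRNA and keeps its strand. The authors' processing notes name FastQC 0.11.8, cutadapt 1.18, Trimmomatic 0.39, STAR 2.6.0a, featureCounts, DESeq2 1.28.0, R 3.6.0 and the genome mm9. The step from reads per gene to the deposited values and the strand setting of the counting are not given in the sources used here. The values the authors deposited are a log-like score per gene and library, from -2.27 to 6.45, with 50.5% below 0 and each library's median within 0.0062 of 0. No filter was applied to them, and precision rests on the spread between 2 libraries.

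Injury and sham were compared over all 12661 genes with limma 3.58.1 in R 4.3.3 (lmFit and eBayes, group as the only term, 3.48 prior and 2 residual degrees of freedom), with Benjamini-Hochberg adjustment and a threshold of 0.05. The fit was tested on simulated data. Alternatives were the replicate number as a block, each library left out, a robust variance prior, scaling of the columns to one spread, quantile normalization, the 28 rows identical in all libraries counted once, and a threshold of 0.1. The median over the 10 genes was added to these after seeing the data.

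The 10 genes and all lists were chosen with earlier results of these data known. Named were the *Hox* genes and TALE cofactors analysed, up to 4 genes that passed in each other list, cell type markers where a result turned on them, and the 5 genes outside the lists whose centred values lay nearest to the median profile of the 10 genes. Coordinates and exon overlaps were read from GENCODE for NCBIM37 (mm9). Python 3.11.15 with numpy 2.4.6, pandas 2.3.3 and matplotlib 3.10.9 served for tables and plots. *Hoxc6*, *Hoxc8*, *Hoxc9* and *Hoxc10* had no entry among the promoter sequences. *Hoxa11*, *Hoxa13*, *Hoxc11*, *Hoxd11*, *Hoxd12*, *Hoxd13*, *Pitx1* and *Tbx4*, among others of the lists, were not analysed here. Some genes of the lists are left unreported.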

Additional observations from a re-analysis of the deposited data

How the results depend on the processing

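None of the 10 *Hox* genes passed in any of 50 fits with all 4 libraries or of 40 fits with a library left out. With a threshold of 0.1 the number passing was 2 of 10, and 2317 over the whole table. Signs turned in 2 of the 50 fits, both of *Hoxc8* (0.044 with one spread, 0.069 with quantile normalization), and in 7 of the 40. With each library left out, *Hoxa10* ranged from -0.54 to 0.20, *Hoxc6* from -0.21 to 0.11, *Hoxc8* from -0.19 to 0.19 and *Hoxc9* from -0.18 to 0.23. Outside the 10 genes, *Hoxa2* (-0.29 to 0.28), *Hoxa3* (-0.37 to 0.17), *Hoxb4* (-0.12 to 0.28) and *Pknox1* (-0.20 to 0.048) turned likewise. Genes passing over the whole table ranged from 0 without sham replicate 1 and 1 without sham replicate 2, over 284 without injury replicate 1, to 1790 without injury replicate 2. A lone library left in a group was assumed to vary like the other group. The cause was not tested.

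With the replicate number as a block, 684 genes passed in place of 941 (381 higher, 303 lower), 0 of them among the 10 genes, and the call on *Hoxb9* was lost (adjusted p = 0.0632 by limma). Under the block 1 progenitor, 0 adipocyte, 6 myeloid, 1 smooth muscle and 2 endothelial markers passed. Deviations of libraries with the same number correlated at -0.094, and nothing in the labels says that a number is shared, so the block is no pairing. The other settings gave 861 to 1087 genes. With 2 libraries a group and unknown depth, a gene whose printed interval includes 0 may still differ by any amount inside that interval. Tests for counts and for other pseudocounts were not run, since the values are neither counts nor abundances.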

Other observations

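The genes outside all lists whose values, centred on each gene's mean, lay nearest to the median profile of the 10 *Hox* genes (0.14, 0.017, -0.20 and 0.12 in sham replicates 1 and 2 and injury replicates 1 and 2) were *Dlgap1*, *Aktip*, *Pus7*, *Ddx50* and *Elovl5*. Their root mean square distances were 0.0232, 0.0235, 0.029, 0.0306 and 0.0308 deposited units over 4 libraries. *Elovl5*, a fatty acid elongase, had values of 0.38 and 0.26 in sham and of 0.079 and 0.42 in injury. *Aktip* had values of 0.25 and 0.12 in sham and of -0.092 and 0.26 in injury. Among the 10 *Hox* genes the distance ran from 0.054 to 0.465, and 94 of 12514 genes outside the lists were nearer to the profile than the nearest *Hox* gene.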
